A study of Mus musculus with 8 samples.

Results

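The circadian clock genes of the distal colon and their output gene Dbp were followed through 8 mouse libraries of rRNA-depleted total RNA. The members are 10 genes picked by name, all found among the 16130 genes of the deposited count table and all tested: Arntl, Clock, Per1, Per2, Per3, Cry1, Nr1d1, Nr1d2, Dbp and Tef. The libraries fall into 4 from environmentally enriched housing (EE) and 4 from non-enriched, conventional housing (NE), each kept for 4 months. Animals of both groups carried ApcMin/+, a truncating allele of the Wnt pathway brake Apc that causes intestinal adenomas, together with an allele labelled Tcf4Het/+. No group lacked either allele, so every value below is from that genotype. The sources used here give neither the animals' age at collection nor whether a library is 1 animal, so p-values measure the spread between these libraries, which may be technical. They also give no hour of collection, and its part in the results was not tested.

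In mammals the clock is a transcriptional loop. The proteins of Arntl (BMAL1) and Clock bind E-box sequences and switch on the Per, Cry, Nr1d, Dbp and Tef genes. PER and CRY proteins then block that activation, while the nuclear receptors encoded by Nr1d1 and Nr1d2 (REV-ERB alpha and beta) repress Arntl through REV-ERB response elements. DBP and TEF are bZIP factors of the PAR family that bind D-box sequences, as found in Per promoters, and carry the rhythm to output genes. Arntl transcript therefore runs in antiphase to most of the others through the day, and the colon, like other peripheral organs, keeps its own clock in epithelium and muscle.

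The following promoters are shown for some of the clock genes described below. Dbp and Nr1d1 stood lowest of the clock genes in EE against NE. Per3 and Tef had a Pearson r of 0.848 across libraries (exact permutation, adjusted p = 0.0512). Arntl and Per3 had an r of −0.786 (exact permutation, adjusted p = 0.107). Neither pair passed the adjusted threshold of 0.05. Per3 had a higher r with Per2 (0.989) and with Per1 (0.907) than with Tef. The windows are RefSeq's on GRCm38.p6, the build of the files (mm10), from 250 bases before to 50 bases after an annotated start, and are read on the gene's strand. Capitals mark matches on either strand to the E-box CACGTG, the E-prime box CACGTT, the D-boxes TTATGTAA and TTACGTAA, the REV-ERB element core TAGGTCA, or TGACGTC, part of the cyclic AMP response element.
Dbp, chr7:45704997-45705296, plus strand: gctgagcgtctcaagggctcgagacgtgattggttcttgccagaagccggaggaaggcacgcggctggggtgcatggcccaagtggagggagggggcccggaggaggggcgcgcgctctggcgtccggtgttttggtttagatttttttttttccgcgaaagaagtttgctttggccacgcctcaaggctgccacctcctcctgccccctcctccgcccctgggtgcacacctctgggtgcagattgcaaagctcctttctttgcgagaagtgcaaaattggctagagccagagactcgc
Nr1d1, chr11:98775328-98775627, minus strand: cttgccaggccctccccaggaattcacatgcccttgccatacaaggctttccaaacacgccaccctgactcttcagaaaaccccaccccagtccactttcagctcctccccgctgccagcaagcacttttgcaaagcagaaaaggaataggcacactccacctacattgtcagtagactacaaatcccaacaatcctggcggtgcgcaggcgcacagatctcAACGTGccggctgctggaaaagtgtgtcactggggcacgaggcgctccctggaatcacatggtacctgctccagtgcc
Per3, chr4:151044616-151044915, minus strand: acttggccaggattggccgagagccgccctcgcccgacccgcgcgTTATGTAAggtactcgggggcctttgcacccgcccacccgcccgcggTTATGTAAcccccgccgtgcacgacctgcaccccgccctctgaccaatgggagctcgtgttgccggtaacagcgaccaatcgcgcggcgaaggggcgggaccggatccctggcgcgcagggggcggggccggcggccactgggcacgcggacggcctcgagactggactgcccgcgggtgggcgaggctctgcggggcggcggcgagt
Tef, chr15:81802423-81802722, plus strand: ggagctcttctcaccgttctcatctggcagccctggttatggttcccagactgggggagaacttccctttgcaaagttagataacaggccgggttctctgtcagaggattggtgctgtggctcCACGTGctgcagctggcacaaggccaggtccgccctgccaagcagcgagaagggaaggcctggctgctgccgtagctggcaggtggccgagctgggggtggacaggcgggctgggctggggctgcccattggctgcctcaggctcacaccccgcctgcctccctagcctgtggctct
Arntl, chr7:113207261-113207560, plus strand: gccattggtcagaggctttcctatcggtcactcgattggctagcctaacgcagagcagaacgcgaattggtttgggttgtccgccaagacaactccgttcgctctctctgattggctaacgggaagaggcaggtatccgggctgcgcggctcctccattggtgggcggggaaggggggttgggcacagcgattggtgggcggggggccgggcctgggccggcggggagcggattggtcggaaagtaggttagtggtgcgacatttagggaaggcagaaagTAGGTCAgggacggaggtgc

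The Per3 window holds 2 copies of the D-box TTATGTAA, starting 205 and 158 bases before the start. Of 32851 windows of this length 1.06% hold a D-box. The Tef window holds an E-box 127 bases before the start, a motif in 7.15% of windows, and a second annotated Tef start also has one. The Nr1d1 window holds the E-prime box, read as AACGTG on the gene's strand, 28 bases before the start, and 4.68% of windows have that box. The Arntl window shown holds TAGGTCA 30 bases after the start, a match found in 2.61% of windows. The window of another annotated Arntl start (chr7:113207215-113207514) holds no match to any of these motifs. Cry1 had an E-box and an E-prime box, Per1 an E-box at one start and TGACGTC (3.21% of windows) at another, and these letters were not in the windows of Dbp, Clock or Nr1d2. These matches describe the letters of the windows only. Windows were found for 9 of the 10 genes, the exception being Per2.

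Counts summed to 4735764 to 6266902 in EE libraries and to 6120185 to 10586851 in NE libraries. All 10 listed colonocyte markers, among them Cdx1, Cdx2 and Krt20, were above 0 in every library. Library EE 4 stood apart on the first principal component, at 46.3 against −14.2 to 6.36 for the other 7, so values without it are given where they matter. Fold changes of the authors' deposited table took a positive sign for genes with higher NE columns, opposite in sign to EE minus NE for 97.8% of the tested genes. The header does not name the numerator, so a ratio of NE over EE and exchanged column names cannot be told apart, and EE and NE below mean the libraries labelled so.

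The output gene Dbp came out furthest apart. Dbp, the D-box factor (GRCm38 chr7:45705088-45710203, plus strand), had 14.9, 15.9, 8.61 and 10.5 CPM (read counts relative to the TMM-scaled library size) in EE 1 to EE 4, against 36.9, 36.3, 18.4 and 19.9 CPM in NE 1 to NE 4. Each EE library lay below each NE library, and NE 1 and NE 2 were well above NE 3 and NE 4. The mean was 12.5 ± 3.48 CPM in EE and 27.9 ± 10.1 CPM in NE (SD, n = 4 each), 55.3% lower in EE. These rest on 57 to 83 counts in EE libraries and 120 to 253 counts in NE libraries. The log2 fold change, EE minus NE, was −1.17 with a standard error of 0.29 (edgeR quasi-likelihood test, adjusted p = 0.520). Dbp thus did not pass the test over all genes, and by its unadjusted p it ranked 35 of 14311.

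No gene of the 14311 tested passed at an adjusted p under 0.05 (0% called with edgeR's quasi-likelihood test), while 820 higher and 537 lower genes had an unadjusted p under 0.05. With DESeq2, 9 genes passed as higher in EE (0.0629%) and 3 as lower (0.021%), limma-voom passed 0, and none of the 10 clock genes was among them. With DESeq2 Dbp had an adjusted p of 0.0916. In the authors' deposited table Dbp had a log2 fold change of 0.83, positive where the NE columns are higher, and an FDR of 0.00102, rank 93 of 16130. At an FDR under 0.05 the authors' deposited table has 1.32% of its genes with higher NE columns, Dbp being the 1 clock gene among them, and 1.07% with higher EE columns, none of them a clock gene. Whether Dbp is called therefore differs between the deposited table and the tests run here.

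Tef (chr15:81802421-81826863, plus strand) encodes a paralogue of DBP with the same DNA-binding preference. It had 114, 64.5, 38.7 and 83.7 CPM in EE 1 to EE 4, against 139, 139, 88.8 and 76.7 CPM in NE 1 to NE 4. The groups overlapped, EE 1 lying above NE 3 and NE 4 and EE 4 above NE 4. Its log2 fold change was −0.56 (SE 0.31, edgeR adjusted p = 0.545). The log2 CPM of Dbp minus that of Tef averaged −2.501 ± 0.51 in EE and −2.004 ± 0.17 in NE (SD, n = 4 each), with EE 1 and EE 4 at −2.91 and −2.96 and EE 2 and EE 3 at −2.001 and −2.13. In EE 1 and EE 4 Dbp was therefore low relative to Tef, and in EE 2 and EE 3 the difference lay within the NE range of −2.25 to −1.90. The lower end of that range is NE 3 alone. The other NE libraries, at −1.93 to −1.90, lay above every EE library.

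**Figure D1:**
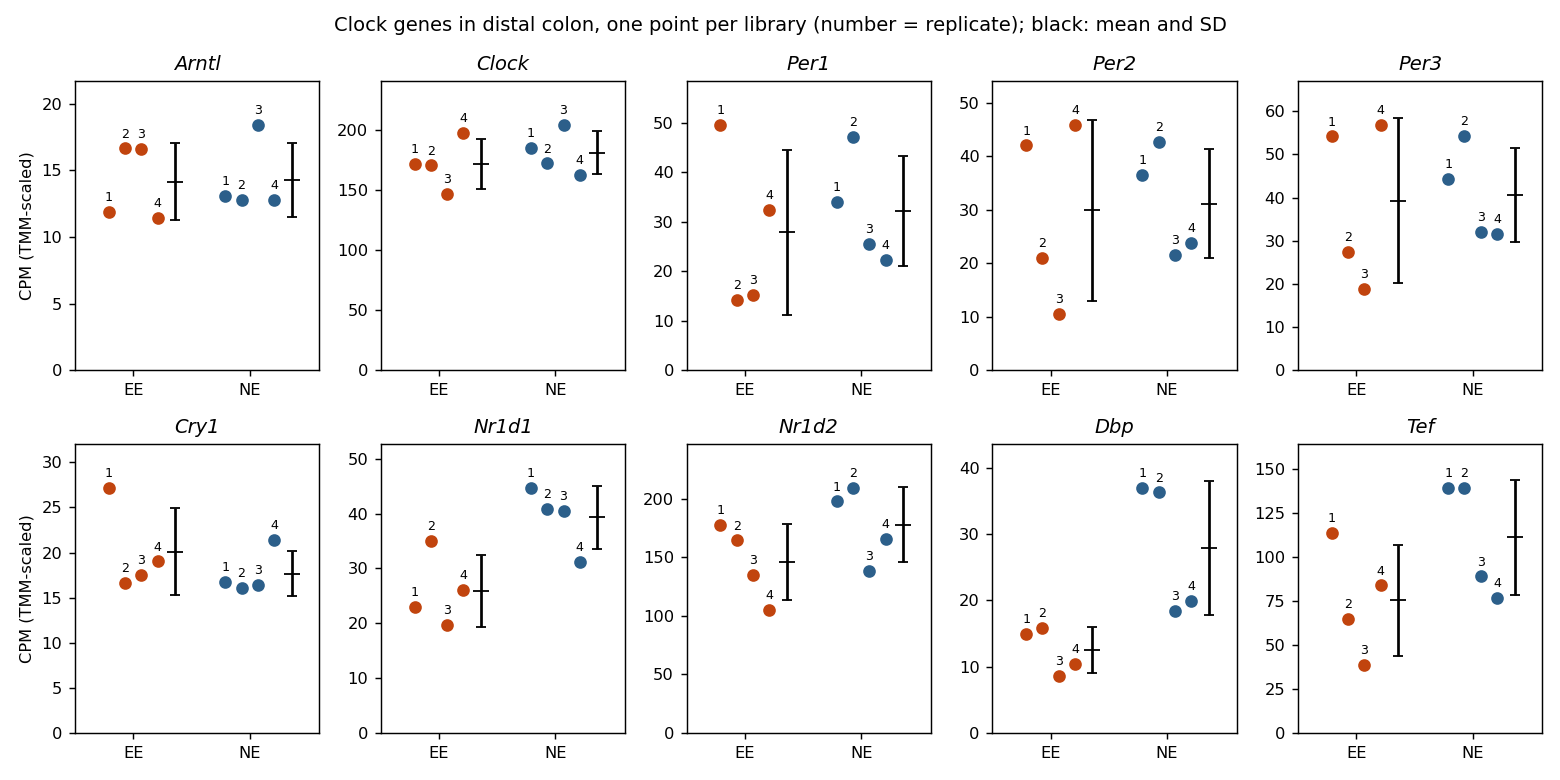
CPM (y axis, TMM-scaled, starting at 0) of each clock gene in EE libraries and NE libraries, with 1 point per library labelled by replicate number and the mean and SD in black. Dbp lies at 8.61 to 15.9 CPM in EE and 18.4 to 36.9 CPM in NE, whereas Per2 spans 10.6 to 45.8 CPM in EE and 21.6 to 42.7 CPM in NE.

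The repressors of Arntl showed a smaller difference than Dbp, with Nr1d1 close to Tef (log2 fold change −0.60 and −0.56). Nr1d1 (chr11:98767932-98775333, minus strand) had 22.9, 35.0, 19.6 and 26.0 CPM in EE 1 to EE 4, against 44.7, 40.9, 40.5 and 31.2 CPM in NE 1 to NE 4. Only EE 2 and NE 4 overlapped. The mean was 25.9 ± 6.61 CPM in EE and 39.3 ± 5.75 CPM in NE (SD over 4 libraries), which came to −0.60 on the log2 scale (SE 0.19, edgeR adjusted p = 0.520). Its paralogue Nr1d2 (chr14:18204054-18239127, minus strand) had 178, 164, 135 and 105 CPM in EE 1 to EE 4, against 198, 209, 138 and 166 CPM in NE 1 to NE 4. These ranges overlapped and the log2 fold change was −0.29 (SE 0.19, edgeR adjusted p = 0.585).

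Among the 10 clock genes, 9 had a negative and 1 (Cry1) a positive log2 fold change, and the median was −0.15, against 0.00 over all tested genes, of which 49.7% were negative. Dbp and Nr1d1 were the 2 with an unadjusted edgeR p under 0.05, both lower in EE, where 3.75% of all tested genes were lower at that level. In 1 of the 10, Dbp, the groups did not overlap with EE lower, which held for 2.02% of all tested genes. The genes share the loop and are not independent of each other.

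The activators did not separate the groups. Arntl (chr7:113207465-113314126, plus strand) had 11.9, 16.7, 16.6 and 11.4 CPM in EE 1 to EE 4, against 13.1, 12.8, 18.4 and 12.8 CPM in NE 1 to NE 4. EE 2, EE 3 and NE 3 were high and the other 5 libraries low, so the high values came from both groups. The log2 fold change was −0.02 (SE 0.20, edgeR adjusted p = 0.980), and it turned positive when EE 1, EE 4 or NE 3 was left out. Clock (chr5:76209868-76304792, minus strand), which encodes the partner of BMAL1, ranged from 147 to 198 CPM in EE and from 163 to 204 CPM in NE, the narrowest spread of the 10. Its log2 fold change was −0.08 (SE 0.13, edgeR adjusted p = 0.824), and 0.0022 without EE 3.

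The Per genes, whose products close the loop, spread widely within each group and overlapped between groups. Per1 (chr11:69095217-69109960, plus strand) had 49.5, 14.2, 15.3 and 32.3 CPM in EE 1 to EE 4, against 33.9, 47.0, 25.5 and 22.2 CPM in NE 1 to NE 4. Per2 (chr1:91415982-91459324, minus strand) had 42.0, 21.1, 10.6 and 45.8 CPM in EE 1 to EE 4, against 36.5, 42.7, 21.6 and 23.9 CPM in NE 1 to NE 4. Per3 (chr4:151003652-151044665, minus strand) had 54.1, 27.4, 18.9 and 56.8 CPM in EE 1 to EE 4, against 44.4, 54.3, 32.1 and 31.7 CPM in NE 1 to NE 4. In all 3 genes EE 1 and EE 4 were high and EE 2 and EE 3 low, while NE 1 and NE 2 were high and NE 3 and NE 4 low. The highest EE library was 3.49, 4.33 and 3.01 times the lowest for Per1, Per2 and Per3, and the highest NE library 2.12, 1.98 and 1.72 times the lowest. The log2 fold changes were −0.22 (SE 0.39) for Per1, −0.06 (SE 0.41) for Per2 and −0.05 (SE 0.33) for Per3, with edgeR adjusted p of 0.838, 0.959 and 0.962. Without NE 2 they were 0.027, 0.13 and 0.13, and Per2 and Per3 also turned positive without EE 2 or EE 3, as did Per2 without NE 1. Differences between housing groups smaller than this spread within groups were not detectable in the Per genes.

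Cry1 (chr10:85131700-85185064, minus strand), the partner of PER in repression, had 27.2, 16.7, 17.5 and 19.0 CPM in EE 1 to EE 4, against 16.7, 16.1, 16.4 and 21.4 CPM in NE 1 to NE 4. EE 1 stood highest, followed by NE 4, and the other 6 libraries lay between 16.1 and 19.0 CPM. The log2 fold change was 0.19 (SE 0.19, edgeR adjusted p = 0.704), and it was 0.012 without EE 1.

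**Figure D2:**
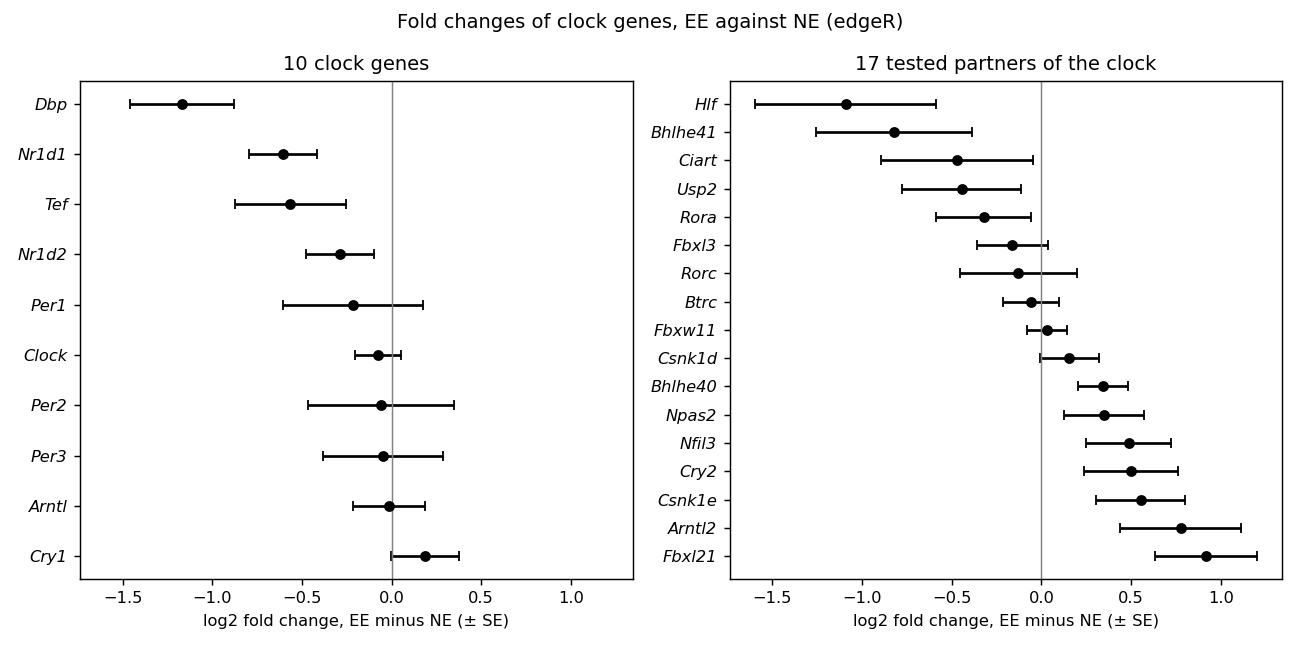
Log2 fold change, EE minus NE (x axis), with its standard error for the 10 clock genes on the left and 17 tested partners of the clock on the right, from the edgeR fit over all genes. Dbp lies furthest to the left at −1.17, followed among the 10 by Nr1d1 at −0.60, and the partners run from −1.09 for Hlf to 0.92 for Fbxl21.

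Levels of different genes were compared per kilobase of annotated exon. Nr1d2 was highest, at 26.9 ± 5.998 CPM per kb in EE and 32.9 ± 5.93 CPM per kb in NE, and above Clock in 8 of 8 libraries with no overlap. Clock (12.5 ± 1.51 and 13.2 ± 1.31 CPM per kb in EE and NE), Tef (9.55 ± 4.02 and 14.1 ± 4.17) and Nr1d1 (8.42 ± 2.15 and 12.8 ± 1.87) followed with overlapping ranges. Dbp, at 4.16 ± 1.16 CPM per kb in EE and 9.31 ± 3.38 CPM per kb in NE, was below Nr1d1 in 8 of 8 libraries although the ranges overlapped, and above Cry1 in 5 of 8. In EE its mean was below those of Cry1 (6.02 ± 1.44), Per2 (5.10 ± 2.88) and Per1 (4.94 ± 2.96), and in NE above them (5.28 ± 0.750, 5.32 ± 1.73 and 5.71 ± 1.96). Cry1, Per1 and Per2 could not be ordered: Cry1 exceeded Per1 in 4 of 8 libraries, and Per1 exceeded Per2 in 4 of 8. Per2 exceeded Per3 in 7 of 8. Arntl was lowest, at 1.88 ± 0.38 CPM per kb in EE and 1.89 ± 0.37 CPM per kb in NE, and below Per3 in 7 of 8 libraries.

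The phase relations between members were read from how they varied together over the 8 libraries. Per2 and Per3 followed each other most closely, with a Pearson r of 0.989 (exact permutation p = 7.44e-05, adjusted p = 0.00335 over 45 pairs, n = 8) and a Spearman rho of 0.976 (exact permutation p = 3.97e-04, adjusted p = 0.0179). Without EE 3 and EE 4, the 2 libraries farthest from the median of Per2, r was 0.985. Per1 with Per3 had r = 0.907 (exact permutation p = 0.00193, adjusted p = 0.0435) and rho = 0.810 (exact permutation p = 0.0218, adjusted p = 0.180), and r was 0.849 without EE 2 and EE 3. These 2 of 45 pairs passed on Pearson's r, and the Per1 pair passed in 1 of the 8 sets that leave out a library, the one without EE 4, where its r was 0.944. The members share library depth, tissue makeup and, for these genes, a gap in Per2 between 23.9 and 36.5 CPM with 4 libraries on each side.

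Tef went with the Per genes, at r = 0.857 with Per1, 0.863 with Per2 and 0.848 with Per3 (exact permutation p of 0.00551, 0.00796 and 0.00707, adjusted p of 0.0512 each). Its rho was 0.881, 0.690 and 0.738 (exact permutation p of 0.00724, 0.0694 and 0.0458, adjusted p of 0.109, 0.260 and 0.206). Dbp had its highest r with Nr1d1, 0.858 (exact permutation p = 0.00709, adjusted p = 0.0512) and rho = 0.905 (exact permutation p = 0.00456, adjusted p = 0.103), and its r with Per2 was 0.472 (exact permutation p = 0.237, adjusted p = 0.445) with rho = 0.214 (exact permutation p = 0.619, adjusted p = 0.774). Its r with Nr1d2 was 0.811 (exact permutation p = 0.0143, adjusted p = 0.0716; rho = 0.786, adjusted p = 0.180) and with Tef 0.806 (exact permutation p = 0.0143, adjusted p = 0.0716; rho = 0.667, adjusted p = 0.267). With values centred on their group means, Dbp had r of 0.805 with Nr1d2, 0.746 with Tef and 0.628 with Nr1d1, and Per2 and Per3 had 0.989. Differences between these coefficients were not tested.

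Arntl had negative coefficients with the Per genes, none of which passed the adjusted threshold. Its values lay in separate ranges, 16.6 to 18.4 CPM in EE 2, EE 3 and NE 3 and 11.4 to 13.1 CPM in the other 5 libraries. No correlation was computed within either range, and the following coefficients are descriptions. Over all 8 libraries r was −0.788 with Per2, −0.786 with Per3 and −0.697 with Per1 (exact permutation, adjusted p of 0.0857, 0.107 and 0.247). The rho was −0.857, −0.762 and −0.643 (exact permutation, adjusted p of 0.121, 0.206 and 0.271). Without EE 2 and NE 3, the libraries farthest from the median of Arntl, r was −0.924, −0.908 and −0.752. With Dbp and Nr1d1 r was −0.188 and 0.136. The 3 libraries in the upper Arntl range had 10.6 to 21.6 CPM of Per2, below the other 5 at 23.9 to 45.8 CPM, while their Dbp, at 8.61 to 18.4 CPM, overlapped the 10.5 to 36.9 CPM of the others.

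**Figure D3:**
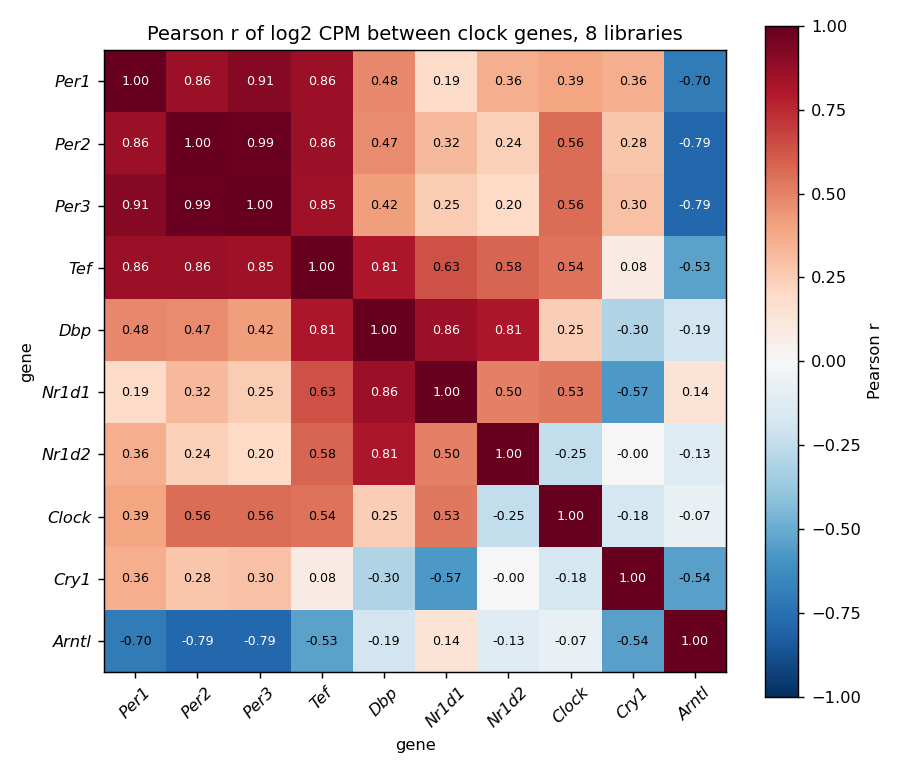
Pearson r of log2 CPM between each pair of the 10 genes over the 8 libraries, with the genes on both axes and colour running from −1 to 1. Per1, Per2, Per3 and Tef form a block with r from 0.85 to 0.99, Dbp has its highest r, 0.86, with Nr1d1, and Arntl has −0.79 with Per2 and Per3.

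Set per library, log2 Arntl minus log2 Per2 was −1.80, −0.33, 0.64 and −1.98 in EE 1 to EE 4, against −1.46, −1.72, −0.23 and −0.89 in NE 1 to NE 4. EE 3 was the 1 library in which Arntl exceeded Per2 in CPM, and EE 1 and EE 4 had the lowest values of all. The groups overlapped, with means of −0.87 ± 1.24 in EE and −1.07 ± 0.66 in NE (SD, n = 4 each). Log2 Arntl minus log2 Dbp was −0.31, 0.07, 0.92 and 0.12 in EE 1 to EE 4, against −1.47, −1.49, 0.00 and −0.63 in NE 1 to NE 4. NE 3 lay among the EE libraries here, so this difference also overlapped, at 0.20 ± 0.52 in EE and −0.90 ± 0.72 in NE. Log2 Clock minus log2 Dbp averaged 3.79 ± 0.39 in EE and 2.75 ± 0.58 in NE, with NE 3 at 3.45 inside the EE range of 3.40 to 4.20. Log2 Arntl minus log2 Nr1d1 averaged −0.85 ± 0.42 in EE and −1.45 ± 0.30 in NE, and log2 Clock minus log2 Per3 2.25 ± 0.62 in EE and 2.18 ± 0.43 in NE. Log2 Nr1d1 minus log2 Nr1d2 was −2.48 ± 0.44 in EE and −2.16 ± 0.29 in NE, and log2 Per1 minus log2 Per2 −0.08 ± 0.54 in EE and 0.04 ± 0.17 in NE.

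EE 1 and EE 4 had Per2 of 42.0 and 45.8 CPM, as high as NE 1 and NE 2 at 36.5 and 42.7 CPM. Their Dbp was 14.9 and 10.5 CPM, against 36.9 and 36.3 CPM in NE 1 and NE 2. EE 2 and NE 3 had nearly the same Per2, 21.1 and 21.6 CPM, with Dbp of 15.9 and 18.4 CPM. In these comparisons Dbp differed more where Per2 was high than where it was low, the low side being a single pair. EE 3 (Per2 10.6, Dbp 8.61 CPM) and NE 4 (Per2 23.9, Dbp 19.9 CPM) were not matched. Each comparison sets EE against NE, and Dbp was lower in every EE library whatever its Per2. The compared libraries were set side by side after their values were seen, and no test was made.

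**Figure D4:**
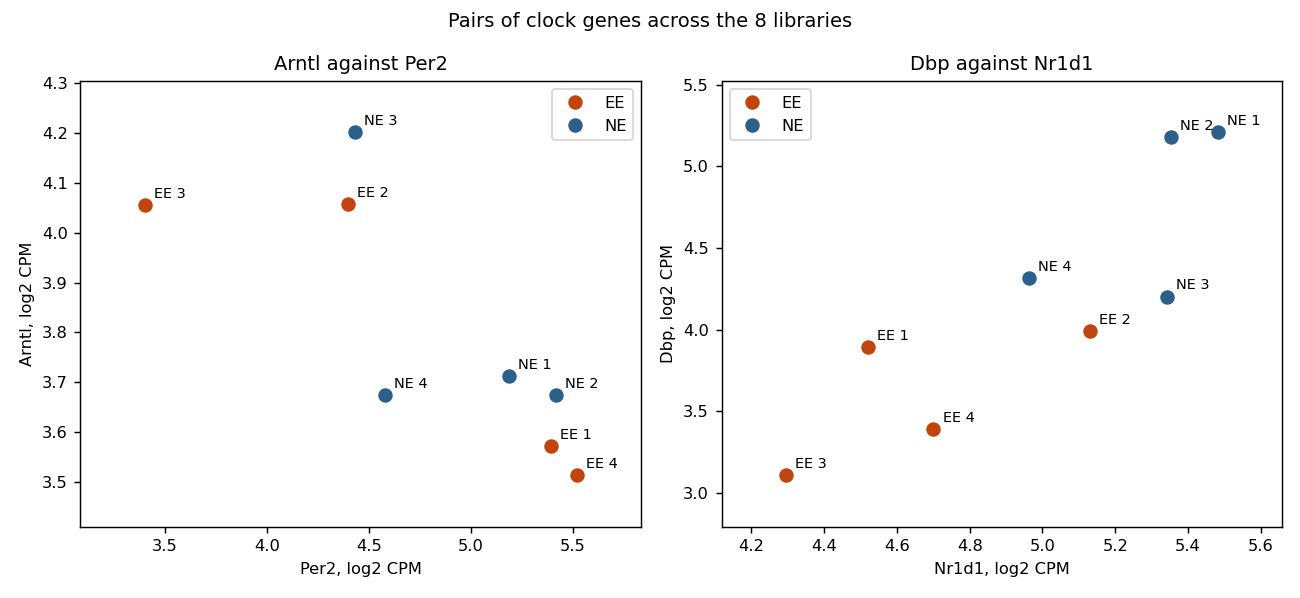
Log2 CPM (no prior count) of Arntl against Per2 on the left and of Dbp against Nr1d1 on the right, 1 point per library, EE and NE in separate colours. EE 2, EE 3 and NE 3 sit above the other 5 libraries in Arntl at low Per2, and on the right the EE libraries fill the lower part and the NE libraries the upper part of a rising band.

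The annotation limits Dbp and Nr1d1 most. Smaller overlaps with an opposite-strand gene are those of Tef (193 bases, 2.45%, Gm17597) and Arntl (33 bases, 0.44%, Gm45355). Exons of Dbp share 539 bases, 18.0% of their length, with Sphk2 on the opposite strand, and exons of Nr1d1 share 263 bases, 8.55%, with Thra on the opposite strand. The sources do not say whether counting used the strand, and reads in these stretches could belong to either gene. Sphk2, a sphingosine kinase, averaged 47.1 ± 6.18 CPM in EE and 49.98 ± 9.34 CPM in NE (log2 fold change −0.09, SE 0.16), and Thra, a thyroid hormone receptor, 33.4 ± 3.11 CPM in EE and 41.1 ± 5.64 CPM in NE (log2 fold change −0.30, SE 0.14).

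Summed levels of cell type markers are given beside Dbp and Nr1d1, and the EE and NE ranges overlapped in all 10 lists. Within a list the fold changes mostly went one way. All 7 markers of crypt base and cycling cells had a positive fold change, EE minus NE. Every tested marker of colonocytes, goblet cells, smooth muscle, fibroblasts, neurons and glia, plasma and B cells, macrophages and fat cells had a negative one. So did 4 of the 5 T cell markers. EE 4 had the lowest sum for smooth muscle, fibroblasts, neurons and glia, plasma and B cells, macrophages and fat cells. Fibroblast markers summed to 1095, 1762, 1929 and 439 CPM in EE 1 to EE 4, EE 2 and EE 3 lying above every NE library. Macrophage markers in EE 3 also lay above every NE library. Marker fold changes without EE 4 are not given here. Summed CPM of 10 colonocyte markers ran from 3828 to 8600.5 in EE and from 6211 to 10835 in NE, and that of 7 goblet cell markers from 9652 to 25828 in EE and from 21975 to 27847 in NE. The 7 markers of crypt base and cycling cells summed to 860.3 to 1657 CPM in EE and 773 to 895 CPM in NE, and 8 smooth muscle markers to 645 to 4255 CPM in EE and 3394 to 5482 CPM in NE. The 6 fibroblast markers summed to 439 to 1929 CPM in EE and 1365 to 1617 CPM in NE, 6 plasma and B cell markers to 309.8 to 2571 CPM in EE and 1996 to 3542 CPM in NE, and 5 macrophage markers to 82.9 to 211 CPM in EE and 168 to 189.95 CPM in NE. In bulk tissue fewer cells of a type and less RNA per cell cannot be told apart. The tested neuron and glia markers, 6 of 8, summed to 8.56 to 38.9 CPM in EE and 27.3 to 51.5 CPM in NE, the 5 T cell markers to 9.13 to 17.98 CPM in EE and 17.8 to 21.4 CPM in NE, and 4 of 5 fat cell markers to 6.98 to 99.91 CPM in EE and 38.8 to 99.90 CPM in NE. Among all listed markers those at 0 in a library were Adipoq, Plin1 and Lep of fat cells. In EE 2, 6 of the 10 lists lay within the NE range. These were colonocytes, goblet cells, crypt base and cycling cells, smooth muscle, neurons and glia, and plasma and B cells. Dbp in EE 2, at 15.9 CPM, was below the lowest NE value of 18.4 CPM. Nr1d1 in EE 2, at 35.0 CPM, was inside its NE range of 31.2 to 44.7 CPM. In EE 1, EE 3 and EE 4, 4, 2 and 0 of 10 lists lay within the NE range. Dbp was 14.9, 8.61 and 10.5 CPM there, and Nr1d1 22.9, 19.6 and 26.0 CPM. Without EE 4 the log2 fold change of Dbp was −1.09 and that of Nr1d1 −0.61. The part of tissue makeup in the values of Dbp and Nr1d1 was not tested.

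Of 18 further genes of the clock machinery 17 were tested, 9 higher and 8 lower in EE, with 0 past the adjusted threshold and a median log2 fold change of 0.03 (−0.0027 without EE 4). At an unadjusted edgeR p under 0.05 there were 4, all higher in EE, where 5.73% of all tested genes were. Fbxl21, an F-box protein of the ubiquitin ligases that act on CRY, had 3.40, 2.68, 3.17 and 3.17 CPM in EE 1 to EE 4, against 1.42, 2.15, 1.22 and 1.82 CPM in NE 1 to NE 4. Its groups did not overlap, as held with EE higher for 2.87% of tested genes, and the log2 fold change was 0.92 (SE 0.29, edgeR adjusted p = 0.520). Arntl2, the paralogue of Arntl, averaged 13.4 ± 4.88 CPM in EE and 7.84 ± 3.06 CPM in NE. Bhlhe40, a repressor at E-boxes, averaged 178 ± 20.8 CPM in EE and 140.2 ± 19.7 CPM in NE, and Csnk1e, a kinase of PER proteins, 53.6 ± 22.3 CPM in EE and 36.7 ± 0.737 CPM in NE. Each of these 3 had an edgeR adjusted p of 0.520 and overlapping groups.

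The third PAR bZIP gene, Hlf, stood on the same side as Dbp and Tef. It had 6.16, 5.17, 2.57 and 0.634 CPM in EE 1 to EE 4, against 7.74, 10.75, 6.19 and 5.64 CPM in NE 1 to NE 4, which was −1.09 on the log2 scale, EE minus NE (SE 0.51, adjusted p = 0.520 with edgeR). EE 1 overlapped NE 4, and EE 4 was lowest. Nfil3, which encodes a repressor that competes for D-boxes, stood on the other side, at 14.8 ± 3.89 CPM in EE and 10.6 ± 2.44 CPM in NE (log2 fold change 0.49, SE 0.24, edgeR adjusted p = 0.522). Hlf and Nfil3 were named for their place beside Dbp after their values were seen.

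Of 8 output genes 6 were higher and 2 lower in EE, with a median log2 fold change of 0.26 and 0 past the adjusted threshold. The median was 0.081 without EE 1, 0.13 without EE 4 and 0.40 without EE 2. Cyp2b10, a cytochrome whose expression in mouse liver depends on PAR bZIP factors, was the 1 with an unadjusted p under 0.05. Of all tested genes 5.73% were higher in EE at that level, and 49.7% had a negative fold change. Cyp2b10 averaged 8.69 ± 2.55 CPM in EE and 5.62 ± 1.29 CPM in NE (log2 fold change 0.62, SE 0.27, edgeR adjusted p = 0.520). Its groups overlapped, EE 2 and EE 4 at 6.51 and 6.50 CPM lying below NE 3 at 7.41 CPM. Dbp, Tef and Hlf had negative fold changes.

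Signals that can set peripheral clocks from outside were read from 3 further lists. All 10 CREB and immediate early genes had a fold change above 0 in the edgeR fit with TMM (median log2 fold change 0.22), with 0 past the adjusted threshold, where 49.7% of all tested genes had a negative fold change. Fosb and Creb1 were above 0 by only 0.016 and 0.027 on the log2 scale. At an unadjusted p under 0.05 and higher in EE there were 2 of the 10, against 5.73% of all tested genes. These were Egr1, at 24.9 ± 7.20 CPM in EE and 15.6 ± 1.77 CPM in NE, and Sik1, a kinase that limits CREB coactivators, at 27.2 ± 5.16 CPM in EE and 18.5 ± 3.51 CPM in NE (edgeR adjusted p = 0.520 each). Of 9 temperature-responsive genes 5 were higher and 4 lower (median 0.15, and −0.026 without EE 4). The heat shock gene Hspa1b was the 1 with an unadjusted p under 0.05, and 3.75% of all tested genes were lower at that level. Hspa1b averaged 6.76 ± 1.81 CPM in EE and 9.74 ± 1.27 CPM in NE (edgeR adjusted p = 0.520). Its groups overlapped, EE 2 at 9.38 CPM lying above NE 2 at 8.17 and NE 3 at 9.29 CPM. Hspa1b has a near-identical copy, Hspa1a, so its share of reads is uncertain.

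Of 11 glucocorticoid-responsive genes 3 were higher and 8 lower in EE (median −0.06), none at an unadjusted edgeR p under 0.05. The median was −0.73 without EE 1 and −0.38 with limma-voom or the replicate block, and it was positive without EE 2 (0.083), EE 3 (0.20), EE 4 (0.10) or NE 2 (0.076). The smallest p were those of the receptor gene Nr3c1, at 120.6 ± 30.8 CPM in EE and 153 ± 14.4 CPM in NE, and of Klf9, at 54.0 ± 20.6 CPM in EE and 72.9 ± 16.97 CPM in NE (edgeR adjusted p of 0.532 and 0.554). EE 1 stood high within this list: Zbtb16 had 31.6 CPM there against 1.21 to 2.87 CPM in the other EE libraries and 4.41 to 20.1 CPM in NE, and Sgk1 had 488 CPM against 62.6 to 98.2 CPM in the other EE libraries and 87.5 to 232 CPM in NE. EE 1 was also the library with the most Per1 (49.5 CPM) and Cry1 (27.2 CPM). Zbtb16 and Sgk1 were chosen after their values were seen.

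Over 8 libraries and 12020 other genes averaging at least 5 CPM, those most like Dbp in log2 CPM were Eno3 (r = 0.976), Dok4 (0.972), Fkbp9 (0.970), Il34 (0.964) and Ptdss1 (0.963). Those most opposed were Top1mt (r = −0.972), Tubg1 (−0.971), Suv39h2 (−0.960), Donson (−0.957) and Fmnl2 (−0.955). Among the clock genes Nr1d1 ranked 233 and Tef 543 in likeness to Dbp. Most like Arntl were Ccdc85b (r = 0.960), Thap3 (0.942), Lrp12 (0.914), Dgcr14 (0.910) and Smyd4 (0.878), and most opposed Asns (−0.898), Acot1 (−0.882), Meg3 (−0.874), Arhgap42 (−0.863) and Pecr (−0.862). In this order of 12020 genes Per3 and Per2 ranked 12000 and 12001, close to the end opposed to Arntl. These coefficients are extremes of many and describe the 8 libraries only.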

How the data were processed

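RNA was extracted from distal colon, made into rRNA-depleted stranded libraries and read as single ends, per the labels' protocols. Novoalign 2.08.01, DESeq 1.14.0 and build mm10 are named in the submitters' processing notes. No annotation, counting program or use of strand is named in the sources used here. The deposited table holds raw read counts of the authors for 8 libraries (whole numbers with unequal totals, lowest gene total 12) and a pair of columns from the authors' comparison that are, per the file headers, its log2 fold change and its FDR (an adjusted p-value).

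Counts were tested in R 4.3.3 with edgeR 4.0.16 (filterByExpr, 14311 genes kept, TMM, robust quasi-likelihood test of EE against NE, no covariate, Benjamini-Hochberg over all genes, threshold 0.05). For correlations, log2 CPM was taken with a prior count of 2. The biological coefficient of variation was 0.219. A standard error is the log2 fold change divided by the square root of F. Exon lengths, overlaps and coordinates come from GENCODE M21 (GRCm38, the build of mm10), which matched all 10 members. Correlations used two-sided exact permutation over pairings of 8 libraries, adjusted over 45 pairs. Alternatives were DESeq2 1.42.0, limma-voom (limma 3.58.1), scaling by RLE or by the upper quartile, leaving out the filter, a minimum of at least 1 CPM in at least 4 libraries, a replicate block, a threshold of 0.1, library totals without TMM, centring on group means and leaving out each library. On counts simulated for EE against NE over 14311 genes, edgeR recovered 53 of 100 genes changed 2-fold and 86 of 100 changed 4-fold, with 6 false calls. Genes were drawn independently there, with no library set apart as EE 4 was, so these recoveries need not hold for the real libraries.

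The members, gene lists, marker lists and tests were chosen with earlier results of these data known. The rule for named genes took the 10 members, list genes with an unadjusted p under 0.05 (or the 2 smallest p), and the 5 genes most and least like Dbp and Arntl. No pair of libraries within a group was close enough to be 1 library deposited under different names (lowest chi-square over its degrees of freedom 7.46).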

Additional observations from a re-analysis of the deposited data

Results flagged for a closer look

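Of 36 sets of 4 values examined, 1 sample stood far from the other 3 in 3 of them, and chance alone marks about 1 in 20. Arntl was 18.4 CPM in NE 3, against 12.8 to 13.1 CPM in the other NE libraries. Cry1 was 21.4 CPM in NE 4, against 16.1 to 16.7 CPM in the other NE libraries. Log2 Dbp minus log2 Tef was −2.25 in NE 3, against −1.93 to −1.90 in the other NE libraries.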

How the results depend on the processing

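Dbp kept a negative log2 fold change in each setting run, from −1.32 without NE 3 to −1.001 without NE 1, and so did Nr1d1 (−0.78 to −0.48) and Tef (−0.83 to −0.34). No member passed the adjusted threshold in any of them. Leaving out a library reversed Arntl (0.06 without EE 1, 0.08 without EE 4, 0.14 without NE 3), Clock (−0.15 to 0.0022, without EE 3), Per1 (−0.64 to 0.027, without NE 2), Per2 (−0.36 to 0.24; 0.07 without EE 2, 0.24 without EE 3, 0.02 without NE 1, 0.13 without NE 2) and Per3 (−0.29 to 0.20; 0.09 without EE 2, 0.20 without EE 3, 0.13 without NE 2). The count of called genes was 0 in the reported test, 12 with DESeq2 and 0 to 1 when a library was left out, the 1 without EE 2. Genes at an unadjusted p under 0.05 numbered 421 to 1413 higher and 244 to 1332 lower in EE over those sets, lowest without NE 1 and highest without EE 2. They were 462 higher and 258 lower without NE 2, 340 lower without NE 3, and 829 lower with limma-voom. Pairs of members past the threshold numbered 0 after centring on group means, 1 with library totals without TMM and 1 to 4 when a library was left out, the 4 without EE 4. Within groups the smallest exact permutation p is 0.00174, which a single pair could not carry past the adjustment over 45. The correlation of Arntl with Nr1d1 ran from −0.10 to 0.54 and reversed without EE 1 (−0.02) and NE 3 (−0.10), and that with Dbp ran from −0.47 to 0.040 and reversed without EE 3. The causes were not tested. The sources do not say that replicate numbers pair the libraries. Same-numbered deviations correlated from −0.18 to 0.25, and 1 of 4 EE libraries correlated best with its own number. So few values cannot decide whether the numbers carry a pairing. With the replicate block Dbp was at −1.13 and 0 genes were called. The unadjusted edgeR p of Dbp was 1.31e-04 with the block and 0.00224 without it, and that of Nr1d1 rose from 0.00955 to 0.0143 (adjusted p with the block 0.502 for both). Library totals of 4735764 to 10586851 limit what Dbp, at 57 counts in its lowest library, can show.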
